A study of Mus musculus with 20 samples.

Results

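The genes described here are Igf2, H19, Igf2r, Igf1 and Igf1r, which encode the ligands and receptors of insulin-like growth factor (IGF) signalling and the non-coding RNA H19 that shares a locus with Igf2. They were taken by name, 5 of the 53440 symbols in the RNA table and 4 of the 20462 genes in each table of histone marks, where H19 had no row. All 5 passed the filter on low RNA values. The genes were chosen with results on these libraries already known, so their own values are given as a description, with standard errors and no test. Tests are given only for other genes.

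The study asked how loss of chromatin assembly factor 1 (CAF-1) affects differentiation of mouse embryonic stem (ES) cells. CAF-1 is the chaperone that places histones H3 and H4 on newly copied DNA. The cells were of the TL1 mouse ES line. The p150 subunit of CAF-1, encoded by Chaf1a, had been depleted with CRISPR/Cas9 in the knockout (KO) cells, and the wild type (WT) cells carried no such change. ES cells were grown in medium with serum and LIF, the cytokine that maintains the undifferentiated state. Embryoid bodies (EB), the aggregates in which ES cells differentiate, were grown in the same medium without LIF. The RNA came from 4 groups (KO EB, WT EB, KO ES and WT ES) of 2 libraries each. H3K4me3, a mark of active promoters, and H3K27me3, the Polycomb mark of facultative heterochromatin, had 1 library per group. The titles of the EB histone mark libraries carry a numeral that those of the EB RNA libraries lack. It was not used here, and whether EB of the same age served for marks and RNA was not checked. The labels do not say how many KO clones were used, or whether both RNA libraries of a group came from separate cultures. The p-values below therefore measure the scatter of these libraries alone, and that scatter may be technical.

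As background, IGF2 and IGF1 are secreted growth factors that act through the receptor tyrosine kinase IGF1R and its signalling through PI3K and AKT. IGF2R, which is also the cation-independent mannose 6-phosphate receptor, binds IGF2 and carries it to lysosomes for degradation, so that it limits the ligand. In mice Igf2 is expressed mainly from the paternal chromosome and H19 and Igf2r mainly from the maternal one. Igf2 and H19 use common enhancers, and binding of CTCF at a control region between them keeps the enhancers from Igf2 on the maternal chromosome. The non-coding RNA Airn runs antisense to Igf2r and silences it on the paternal chromosome. Igf2, H19 and Igf2r are abundant in embryonic and extraembryonic mesoderm and endoderm. None of the tables used here separates the parental alleles.

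The RefSeq promoter windows of these genes are shown because the genes differ in sequence at their starts. The histone mark values below are 1 per gene and cannot be assigned to a start. Each window holds 250 bases before and 50 bases from a start site on, in assembly GRCm38.p6, written 5′ to 3′ on the gene's strand. Windows were found for 4 of the 5 genes, with none for H19. Capitals mark GC boxes, the letters GGGCGG on either strand, so that CCGCCC is the same box read on the other strand. Igf2 has 4 windows, of which numbers 3 (chr7:142658755-142659054, minus strand) and 4 (chr7:142657447-142657746, minus strand) are printed. Igf2r lies at chr17:12769657-12769956 on the minus strand, Igf1 at chr10:87860861-87861160 on the plus strand and Igf1r at chr7:67952007-67952306 on the plus strand.
Igf2 start 3: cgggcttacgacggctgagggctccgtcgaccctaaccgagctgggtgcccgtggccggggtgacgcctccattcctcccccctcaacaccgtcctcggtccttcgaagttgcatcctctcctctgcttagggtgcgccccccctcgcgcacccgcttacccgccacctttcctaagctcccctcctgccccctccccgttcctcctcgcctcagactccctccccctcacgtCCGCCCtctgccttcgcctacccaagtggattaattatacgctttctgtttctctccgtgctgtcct
Igf2 start 4: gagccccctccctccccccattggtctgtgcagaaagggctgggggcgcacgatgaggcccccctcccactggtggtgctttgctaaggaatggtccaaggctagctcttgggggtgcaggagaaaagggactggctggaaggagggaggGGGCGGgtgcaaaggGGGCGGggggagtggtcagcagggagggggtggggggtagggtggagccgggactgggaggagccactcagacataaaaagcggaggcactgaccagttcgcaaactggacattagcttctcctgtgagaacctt
Igf2r: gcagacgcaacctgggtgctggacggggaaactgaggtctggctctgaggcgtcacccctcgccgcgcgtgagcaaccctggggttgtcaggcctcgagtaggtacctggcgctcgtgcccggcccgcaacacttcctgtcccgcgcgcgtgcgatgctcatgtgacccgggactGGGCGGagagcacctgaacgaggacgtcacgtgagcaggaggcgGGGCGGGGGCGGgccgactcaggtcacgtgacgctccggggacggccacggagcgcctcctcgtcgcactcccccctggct
Igf1: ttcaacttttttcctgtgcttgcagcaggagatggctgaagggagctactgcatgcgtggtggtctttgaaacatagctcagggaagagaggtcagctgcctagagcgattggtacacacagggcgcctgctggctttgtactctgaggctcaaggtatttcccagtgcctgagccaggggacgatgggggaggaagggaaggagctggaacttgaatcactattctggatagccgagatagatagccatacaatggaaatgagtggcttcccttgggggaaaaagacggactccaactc
Igf1r: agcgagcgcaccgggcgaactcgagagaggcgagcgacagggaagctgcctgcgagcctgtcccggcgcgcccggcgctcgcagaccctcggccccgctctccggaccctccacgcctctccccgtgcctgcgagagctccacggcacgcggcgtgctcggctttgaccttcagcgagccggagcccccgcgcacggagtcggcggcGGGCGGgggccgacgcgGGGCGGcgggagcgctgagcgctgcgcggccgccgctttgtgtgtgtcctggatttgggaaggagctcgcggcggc

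The receptor genes had CpG-rich windows, with 34 CpG dinucleotides in Igf2r and 48 in Igf1r, against a median of 7 over 32851 windows of the same length. The 4 windows of Igf2 held 2, 14, 24 and 7 CpG, in order along the gene. The window of Igf1 held 6. Igf2r had 3 GC boxes, which began 75, 31 and 25 bases before the start. Igf1r had 2, at 43 and 26 bases before it, and window 4 of Igf2 had 2, at 100 and 85 bases before it. Window 3 of Igf2 had 1, at 17 bases before the start, and Igf1 had none. A GC box was present in 35.7% of all windows. The letters CCAAT on either strand were found in window 4 of Igf2 and in that of Igf1, and in 37.4% of all windows. The letters TATAAA on either strand were in no window of these genes and in 13.6% of all. These are matches of letters and not shown to be sites of binding.

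Chaf1a RNA gave no check of the KO label. Chaf1a, the targeted gene, had 31.6 and 35.0 FPKM in KO EB, against 31.7 and 32.1 in WT EB, and 48.1 and 38.0 FPKM in KO ES, against 49.5 and 43.0 in WT ES. The groups overlapped at each stage, and FPKM over the whole gene cannot show a small CRISPR lesion. Summed over 5 ES cell markers (Pou5f1, Nanog, Sox2, Esrrb and Zfp42), FPKM ran from 1138 to 1407 in KO EB, 103 to 177 in WT EB, 2141 to 2176 in KO ES and 2502 to 2566 in WT ES. Each library summed to between 641692 and 781913 FPKM. The RNA table has no counts, so the sequencing depth is unknown. FPKM is the number of fragments scaled to transcript length and library size, as the authors' software computed it.

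**Figure D1:**
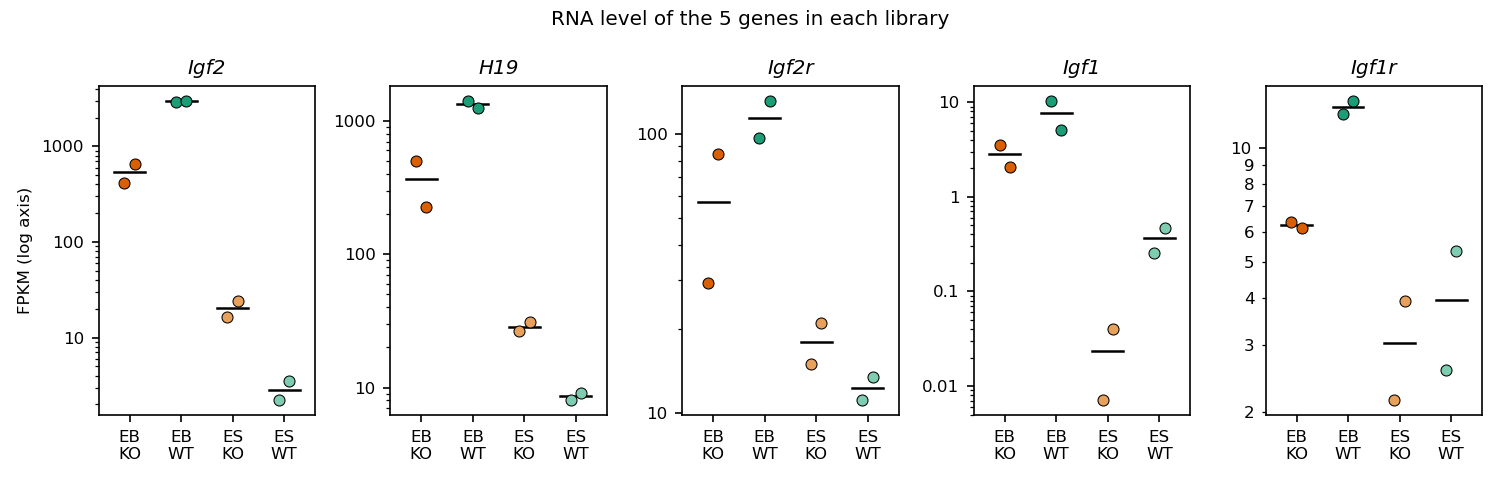
FPKM of Igf2, H19, Igf2r, Igf1 and Igf1r (log axes, 1 panel per gene) in KO EB, WT EB, KO ES and WT ES. Points are single libraries and bars are means of 2 libraries. In every panel WT EB is the highest group, and for Igf2, H19 and Igf2r the KO is below the WT in EB and above it in ES.

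All 5 genes had their lowest values in one of the ES groups and their highest in WT EB, and in KO EB they lay between. Comparing KO EB with WT EB, the libraries of all 5 genes did not overlap and were lower in KO EB, a pattern that 42.2% of all 15428 genes tested showed. At the threshold of an adjusted p under 0.05, 25.9% of all genes were called lower in KO EB, 20.0% were called higher and 45.9% were called in either direction. In ES cells, Igf2, H19 and Igf2r were higher in the KO without overlap (25.6% of all genes), Igf1 was lower without overlap (18.5%) and Igf1r overlapped. Between KO ES and WT ES, 0.499% of all genes were called, 0.421% higher and 0.0778% lower. All 5 genes were higher in EB than in ES cells without overlap, both in WT (45.9% of all genes, with 60.9% called in either direction) and in KO (38.1%, with 29.1% called). These shares are background, and nothing is read from the counts, since the genes were chosen with these contrasts known.

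Among the ligands, Igf2 (ENSMUSG00000048583.16, mm10 chromosome 7, 142650766 to 142666816) was the more abundant and differed most between groups. It had 417 and 657 FPKM in KO EB, against 2923 and 2982 FPKM in WT EB. It had 16.5 and 24.0 FPKM in KO ES, against 2.22 and 3.50 FPKM in WT ES. The KO libraries were thus low in EB and high in ES cells relative to WT, and no 2 of the 4 groups overlapped.

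On the log2(FPKM + 1) scale, Igf2 differed by -2.49 ± 0.27 (SE, n = 2 each) between KO EB and WT EB, a 5.50-fold lower mean FPKM in KO EB. Between KO ES and WT ES it differed by 2.46 ± 0.27, a 7.09-fold higher mean FPKM in KO ES. EB minus ES came to 4.65 ± 0.27 in KO cells, 26.5-fold in mean FPKM, and to 9.60 ± 0.27 in WT cells, 1033-fold in mean FPKM. KO cells thus had more Igf2 RNA than WT cells in ES culture and less in EB. Among all symbols ranked by FPKM, Igf2 was at rank 232 and 173 in KO EB and at rank 17 and 13 in WT EB. It made up 0.0533% and 0.0877% of all FPKM in KO EB, against 0.428% and 0.465% in WT EB.

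Igf1 (ENSMUSG00000020053.18, chromosome 10, 87858265 to 87937042), the second ligand and the main mediator of growth hormone after birth, was low in EB and under 1 FPKM in every ES library. In WT EB it stood at rank 7607 and 10167 among all symbols. It had 3.55 and 2.09 FPKM in KO EB, against 10.3 and 5.06 FPKM in WT EB. It had 0.00712 and 0.0400 FPKM in KO ES, against 0.256 and 0.470 FPKM in WT ES. The KO libraries were lower at both stages, and the spread between libraries of a group was wide. The log2 difference was -1.14 ± 0.33 between KO EB and WT EB and -0.41 ± 0.33 between KO ES and WT ES (SE, n = 2 each). Without WT EB replicate 1 the EB difference was -0.69. The added 1 compresses the ES difference, which was -1.88 with 0.1 added. Igf1 FPKM was 0.851% and 0.319% of Igf2 FPKM in KO EB and 0.351% and 0.170% in WT EB, so Igf2 was the predominant IGF transcript in both EB groups.

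H19 (ENSMUSG00000000031.16, chromosome 7, 142575529 to 142578143), a spliced non-coding RNA that hosts the microRNA miR-675, lies 72623 bases from Igf2. It had 502 and 227 FPKM in KO EB, against 1411 and 1247 FPKM in WT EB. It had 26.6 and 30.8 FPKM in KO ES, against 8.06 and 9.16 FPKM in WT ES. The order of the 4 groups was the same as for Igf2, with no overlap. The log2 difference was -1.97 ± 0.33 between KO EB and WT EB, 3.65-fold lower in KO EB, and 1.63 ± 0.33 between KO ES and WT ES, 3.34-fold higher in KO ES. EB minus ES came to 3.51 ± 0.33 in KO and 7.11 ± 0.33 in WT cells (SE, n = 2 each). The model of Mir675, which lies within H19, was listed at 0 in all 8 libraries. How reads were divided between overlapping models is not known, so this does not show that the microRNA was absent.

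The ratio of Igf2 to H19 FPKM was higher in each EB library than in any ES library. KO EB replicate 1 lay close to the KO ES libraries, however, and far from KO EB replicate 2. The ratio was 0.829 and 2.90 in KO EB, against 2.07 and 2.39 in WT EB. It was 0.619 and 0.780 in KO ES, against 0.275 and 0.382 in WT ES. KO EB replicate 1 had less Igf2 and more H19 than KO EB replicate 2, so the KO EB ratios lay on both sides of those of WT EB. In ES cells the ratio was higher in both KO libraries. Without KO EB replicate 1 the KO minus WT difference in EB was -2.17 for Igf2 and -2.54 for H19, and without KO EB replicate 2 it was -2.82 and -1.40.

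Among the receptors, Igf2r (ENSMUSG00000023830.13, chromosome 17, 12682406 to 12769664) was the more abundant. It had 29.2 and 84.5 FPKM in KO EB, against 96.3 and 131 FPKM in WT EB. It had 14.9 and 20.9 FPKM in KO ES, against 11.1 and 13.4 FPKM in WT ES. The groups did not overlap, but KO EB replicate 2 came close to WT EB replicate 1 while KO EB replicate 1 was near the ES level. The log2 difference between KO EB and WT EB was -1.16 ± 0.45 (SE, n = 2 each), and it was -0.41 without KO EB replicate 1 and -1.91 without KO EB replicate 2. Between KO ES and WT ES it was 0.50 ± 0.45. EB minus ES was 1.45 ± 0.45 in KO cells, with 0.70 without KO EB replicate 2 and 2.20 without KO EB replicate 1, and 3.10 ± 0.45 in WT cells. The ES difference was 0.27 without KO ES replicate 2. The ratio of Igf2 to Igf2r FPKM, the ligand to its clearance receptor, was 14.3 and 7.78 in KO EB, against 30.4 and 22.8 in WT EB. It was 1.11 and 1.15 in KO ES, against 0.201 and 0.260 in WT ES.

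Airn (chromosome 17, 12741311 to 12860122) overlaps Igf2r and fell in KO EB. It had 1.15 and 2.39 FPKM in KO EB, against 11.2 and 9.74 FPKM in WT EB. It had 0 and 0.0529 FPKM in KO ES, against 0 and 0.0879 FPKM in WT ES. The KO minus WT difference in EB was -2.08 ± 0.24 (limma, Benjamini-Hochberg adjusted p = 0.00104), and EB minus ES was 1.40 ± 0.24 in KO (adjusted p = 0.00759) and 3.46 ± 0.24 in WT cells (adjusted p = 5.42e-05). The ratio of Airn to Igf2r FPKM was 0.0393 and 0.0283 in KO EB, against 0.116 and 0.0743 in WT EB. Whether counting used strand is not given in the sources used here, so reads of Airn and of unspliced Igf2r cannot be told apart where they overlap.

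Igf1r (ENSMUSG00000005533.10, chromosome 7, 67952827 to 68233668), the signalling receptor, was low and varied least. It had 6.35 and 6.12 FPKM in KO EB, against 12.3 and 13.3 FPKM in WT EB. It had 2.15 and 3.93 FPKM in KO ES, against 2.58 and 5.34 FPKM in WT ES. The EB groups did not overlap, and the ES groups did. The log2 difference was -0.93 ± 0.31 between KO EB and WT EB, a 2.05-fold lower mean FPKM in KO EB. It was -0.27 ± 0.31 between KO ES and WT ES (SE, n = 2 each), and its sign turned to 0.05 without KO ES replicate 1 and to 0.14 without WT ES replicate 2. The ratio of Igf2r to Igf1r FPKM was 4.59 and 13.8 in KO EB, against 7.86 and 9.85 in WT EB. The KO EB values of this ratio lay on both sides of those of WT EB.

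A further model at the Igf2 locus moved opposite to Igf2 between KO EB and WT EB, and with it in the other contrasts. RP23-209O22.2 (chromosome 7, 142650769 to 142669942), a model named after a clone that overlaps Igf2 along most of its length, had 50.1 and 38.2 FPKM in KO EB, against 2.05 and 2.39 FPKM in WT EB. It had 8.91 and 5.18 FPKM in KO ES, against 0.0107 and 0.0257 FPKM in WT ES. It rose in KO EB by 3.80 ± 0.26 (adjusted p = 2.52e-04) and in KO ES by 2.94 ± 0.26 (adjusted p = 0.00932). It was thus higher in the KO at both stages, while Igf2 was lower in KO EB and higher in KO ES. EB minus ES was 2.52 ± 0.26 in KO (adjusted p = 0.00162) and 1.66 ± 0.26 in WT cells (adjusted p = 0.00116), a rise as for Igf2.

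The ES call of RP23-209O22.2 was lost without KO ES replicate 1 (adjusted p = 0.0565), without WT ES replicate 1 (0.0730), without WT ES replicate 2 (0.0815), without WT EB replicate 1 (0.0571) and without WT EB replicate 2 (0.0569). With only the ES libraries in the fit, the adjusted p was 0.238. The model's share of the FPKM of Igf2 and itself was 10.7% and 5.50% in KO EB, against 0.0700% and 0.0801% in WT EB, and 35.1% and 17.7% in KO ES, against 0.481% and 0.730% in WT ES. How reads were divided between overlapping models is not known from the table. With both models added together, a step chosen after seeing the data, the KO minus WT difference of Igf2 was -2.37 in EB and 2.89 in ES cells.

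Igf2os, the antisense transcript of the locus (chromosome 7, 142659693 to 142670356), had 2.62 and 3.86 FPKM in KO EB, against 21.0 and 19.5 FPKM in WT EB. It fell in KO EB by 2.34 on the log2 scale (SE 0.20, adjusted p = 4.03e-04), close in size to the difference of Igf2. It was 0.629% and 0.588% of Igf2 FPKM in KO EB and 0.719% and 0.653% in WT EB. Because Igf2os overlaps Igf2, reads of the pair cannot be told apart without strand. Mir483, which lies within Igf2, was listed at 0 in all libraries, which likewise does not show that the microRNA was absent.

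**Figure D2:**
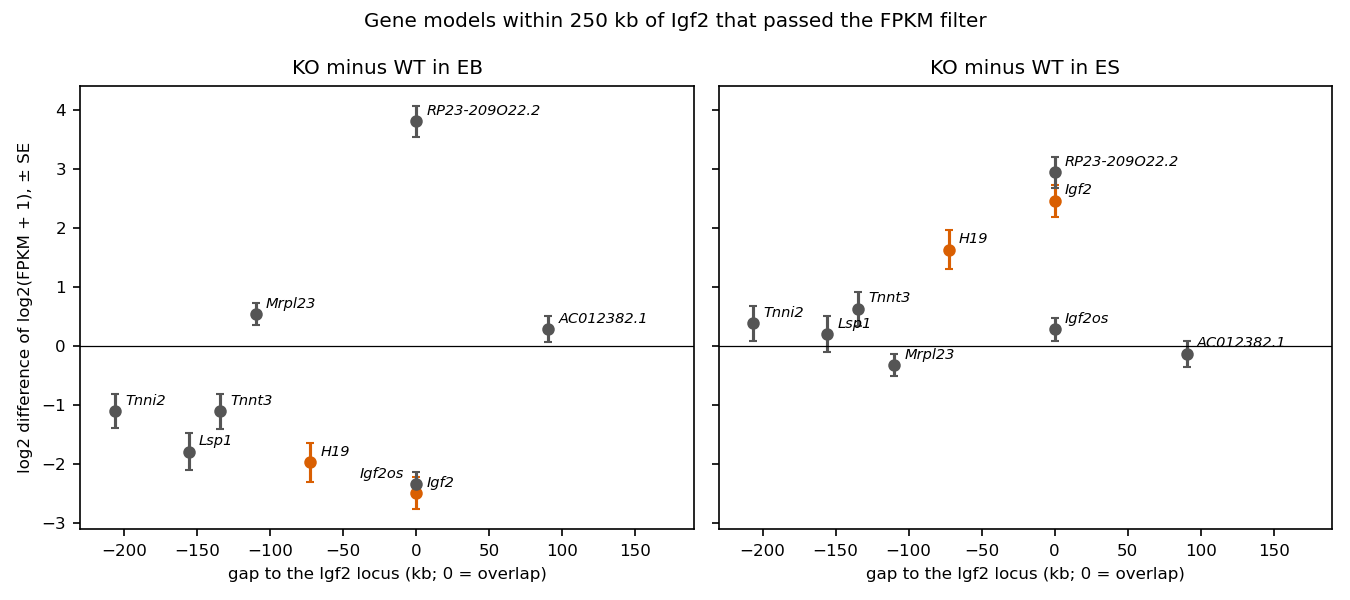
KO minus WT difference of log2(FPKM + 1) in EB (left) and ES cells (right), with standard errors, for Igf2, H19 (both orange) and the other models within 250 kb of Igf2 that passed the filter (grey), by gap from the Igf2 locus in kb. In EB, Igf2 at -2.49, Igf2os at -2.34 and H19 at -1.97 lie low together, and RP23-209O22.2 at 3.80 stands above them.

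Around the imprinted loci, the other genes did not all move alike. Of 10 other models within 250 kb of Igf2 or H19 that passed the filter, 1 rose and 5 fell in KO EB, 1 rose in KO ES, and 8 rose and 0 fell in WT EB relative to WT ES. Of all genes, 20.0% rose and 25.9% fell in KO EB, and 0.421% rose in KO ES. In WT EB relative to WT ES, 36.1% of all genes rose and 24.8% fell. With 10 models, these counts are a description. Lsp1, a leukocyte cytoskeletal protein, fell in KO EB by 1.79 on the log2 scale (SE 0.31, adjusted p = 0.00409). Ifitm10 fell by 1.05 (SE 0.17, adjusted p = 0.00319). The troponin genes Tnni2 and Tnnt3, which encode parts of the fast muscle contractile apparatus, fell by 1.10 (SE 0.29, adjusted p = 0.0183) and 1.11 (SE 0.29, adjusted p = 0.0189). The call of Tnni2 was lost without KO EB replicate 2 (0.0858) or WT EB replicate 2 (0.103), and that of Tnnt3 without KO EB replicate 1 (0.0616), KO EB replicate 2 (0.0765) or WT EB replicate 1 (0.0854). Mrpl23, the mitochondrial ribosomal protein gene next to H19, had 88.4 and 77.5 FPKM in KO EB, against 69.4 and 46.3 FPKM in WT EB (0.54 ± 0.19, adjusted p = 0.0501). Ctsd, the lysosomal protease cathepsin D, did not pass the test either (-0.38 ± 0.18, adjusted p = 0.125).

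Of 10 other models within 250 kb of Igf2r, 4 rose and 4 fell in KO EB and 0 were called in KO ES. Over all genes, 20.0% rose and 25.9% fell in KO EB, and 0.499% were called in KO ES. Pnldc1, a nuclease of piRNA maturation, rose by 1.57 ± 0.18 in KO EB (adjusted p = 9.95e-04). It had 3.08 and 2.88 FPKM in KO EB, against 0.339 and 0.346 FPKM in WT EB. Sod2, the mitochondrial superoxide dismutase, rose by 1.08 ± 0.15 (adjusted p = 0.00202). Both genes thus moved opposite to Igf2r and Airn in KO EB. Besides Airn, the falls were Gm23833 at -1.93 ± 0.20, RP23-432O2.2 at -0.97 ± 0.22 and Acat2 at -0.35 ± 0.11. Gm23833 and RP23-432O2.2 lie within the span of Airn. The call of Acat2 was lost with only the EB libraries in the fit (adjusted p = 0.0723). The 2 further rises were Mrpl18 and Wtap, at 0.40 ± 0.09 and 0.37 ± 0.09. The call of Mrpl18 was lost without KO EB replicate 1 (adjusted p = 0.0662) or WT EB replicate 2 (0.0548), and that of Wtap without KO EB replicate 1 (0.0676) or WT EB replicate 1 (0.0509). With column totals set equal, Mrpl18 and Wtap were not called either (adjusted p = 0.0983 and 0.179).

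The histone marks were measured in 1 library per group, so the values have no replicate check and no test was made. The deposited signal rises with the length of a gene's locus and is therefore compared only for the same gene between libraries. Past 2-fold means a ratio of at least 2 in either direction, after 0.1 was added to each value. Of 32 ratios, 4 genes by 4 contrasts by 2 marks, 4 were past 2-fold, all of them in H3K4me3. Of these, 3 were of Igf2 and 1 was of Igf2r. Of all genes, 11.8% were past 2-fold in H3K4me3 for KO over WT in EB, 1.06% for KO over WT in ES cells, 3.29% for EB over ES in KO cells and 20.1% for EB over ES in WT cells.

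**Figure D3:**
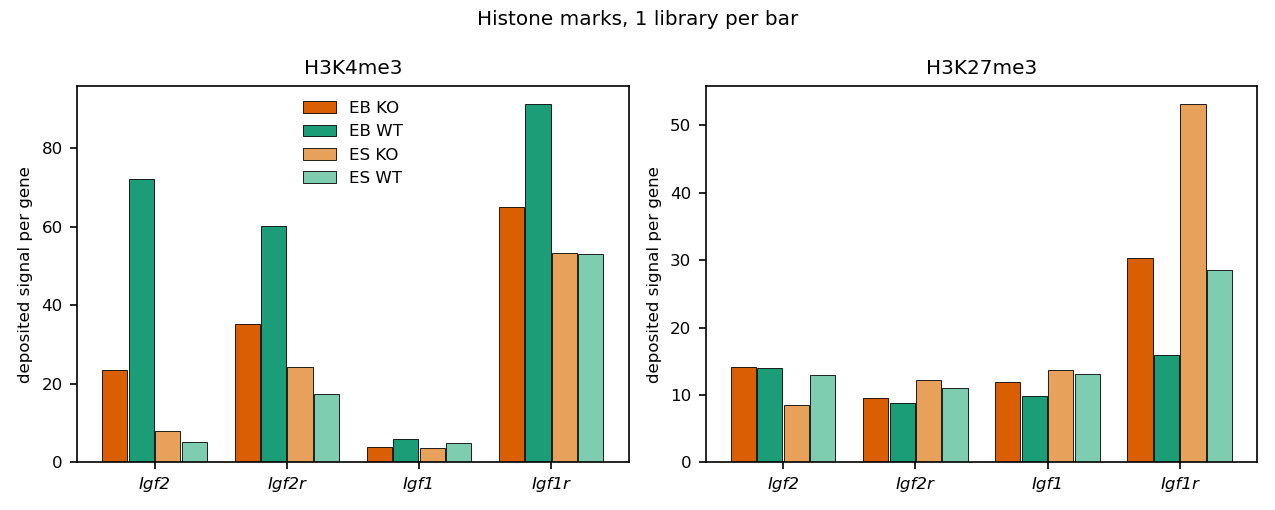
Deposited signal of H3K4me3 (left) and H3K27me3 (right) over Igf2, Igf2r, Igf1 and Igf1r in KO EB, WT EB, KO ES and WT ES, 1 library per bar. H3K4me3 of Igf2 was 23.5 in KO EB against 72.3 in WT EB, and H3K27me3 of Igf1r was 53.2 in KO ES against 28.6 in WT ES.

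H3K4me3 over Igf2 followed the order of its RNA. The signal was 23.5 in KO EB, against 72.3 in WT EB, and 8.11 in KO ES, against 5.15 in WT ES. The log2 ratio of KO over WT was -1.62 in EB, where 0.308% of 20462 genes had a smaller one and 3.24% were past 2-fold lower. In ES cells it was 0.65, and 3.12% of genes had a larger one. EB over ES was 1.53 in KO cells, with 0.210% of genes above it and 1.35% past 2-fold higher. It was 3.79 in WT cells, with 0.0195% above it and 9.28% past 2-fold higher. The median log2 ratio over all genes was -0.08, 0.02, 0.00 and 0.03 for these 4 contrasts.

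H3K4me3 over Igf2r was 35.3 in KO EB, against 60.1 in WT EB, and 24.3 in KO ES, against 17.5 in WT ES. Its log2 ratio of KO over WT was -0.77 in EB and 0.47 in ES cells, and that of EB over ES was 0.54 in KO and 1.77 in WT cells. Igf2r thus had the same order of groups as Igf2 in this mark and in RNA. Igf1r had 65.0 in KO EB, against 91.3 in WT EB, and 53.4 in KO ES, against 53.1 in WT ES. Igf1 had 3.87 in KO EB, against 5.92 in WT EB, and 3.63 in KO ES, against 4.99 in WT ES. Levels of different genes are not compared here, because the deposited signal rose with locus length. The source of that rise was not tested. Among other genes, 0 of the 13 imprinted network genes in the table were past 2-fold higher in KO EB and 5 were past 2-fold lower, with a median log2 ratio of -0.89. Of the 61 other genes of the IGF system, 3 were higher and 6 lower, with a median of -0.15. Of all genes, 3.24% were past 2-fold lower in KO EB and 11.8% were past 2-fold in either direction. The median log2 ratio over all genes was -0.08.

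H3K27me3 differed little over Igf2 in EB, with 14.1 in KO EB, against 14.0 in WT EB, and was 8.54 in KO ES, against 12.9 in WT ES. The EB libraries thus had nearly equal values of this mark over Igf2, while its RNA and H3K4me3 were lower in KO EB. Igf2r had 9.50 in KO EB, against 8.88 in WT EB, and 12.3 in KO ES, against 11.0 in WT ES. Igf1 had 12.0 in KO EB, against 9.88 in WT EB, and 13.7 in KO ES, against 13.1 in WT ES. None of these ratios was past 2-fold, as 12.5% of all genes were for KO over WT in EB and 3.58% in ES cells. For EB over ES the share was 9.16% in KO and 20.8% in WT cells, with none of the 4 genes among them.

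Igf1r had the largest H3K27me3 ratios of the 4 genes. Its signal was 30.3 in KO EB, against 15.9 in WT EB, and 53.2 in KO ES, against 28.6 in WT ES. The log2 ratio of KO over WT was 0.93 in EB, with 7.21% of all genes above it, and 0.89 in ES cells, with 1.89% above it. The locus of Igf1r spans 280842 bases, and among 888 genes with a locus of at least 200 kb the median log2 ratio of KO over WT was 0.19 in EB and 0.08 in ES cells. Of those long genes, 6.08% had a larger ratio than Igf1r in EB and 1.35% in ES cells. EB over ES was -0.81 in KO and -0.85 in WT cells. Igf1r RNA was lower in KO EB and overlapped between the ES groups.

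Other genes of the IGF system were tested as 5 lists of 61 genes, of which 60 were in the RNA table and 55 passed the filter. In KO EB 7 rose and 22 fell, and the median log2 difference of the 55 was -0.36, against -0.06 over all genes tested. Of all genes, 20.0% rose and 25.9% fell in KO EB. These shares are the background for the KO EB counts of each list and of the markers below. Of all calls in KO EB 43.6% were higher, and 30.2% were with column totals set equal, which moved the median of all genes to -0.24. In ES cells 0 of the 55 were called by limma, against 0.499% of all genes. At an unadjusted limma p under 0.05 there were 7 (5 higher and 2 lower in KO ES). The share of all genes at that threshold was not computed, so nothing is read from that count. In EB relative to ES cells, 32 rose and 9 fell in WT cells, with a median of 1.02 against 0.12 over all genes, of which 36.1% rose and 24.8% fell. In KO cells 21 rose and 9 fell in EB relative to ES cells, and the sum of these calls was 18 to 28 with 1 library left out (18 without KO ES replicate 1, 19 without KO ES replicate 2 and 19 without KO EB replicate 2). Their median in KO cells was 0.46 against 0.07, where 17.1% of all genes rose and 12.0% fell. The difference of the KO effects, EB minus ES, was called in 25 of the 55, 5 higher and 20 lower, against 31.3% of all genes (12.7% higher and 18.6% lower). That number was 14 without KO EB replicate 1 or WT EB replicate 2, 15 without WT ES replicate 1 and 16 without WT EB replicate 1 or WT ES replicate 2.

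**Figure D4:**
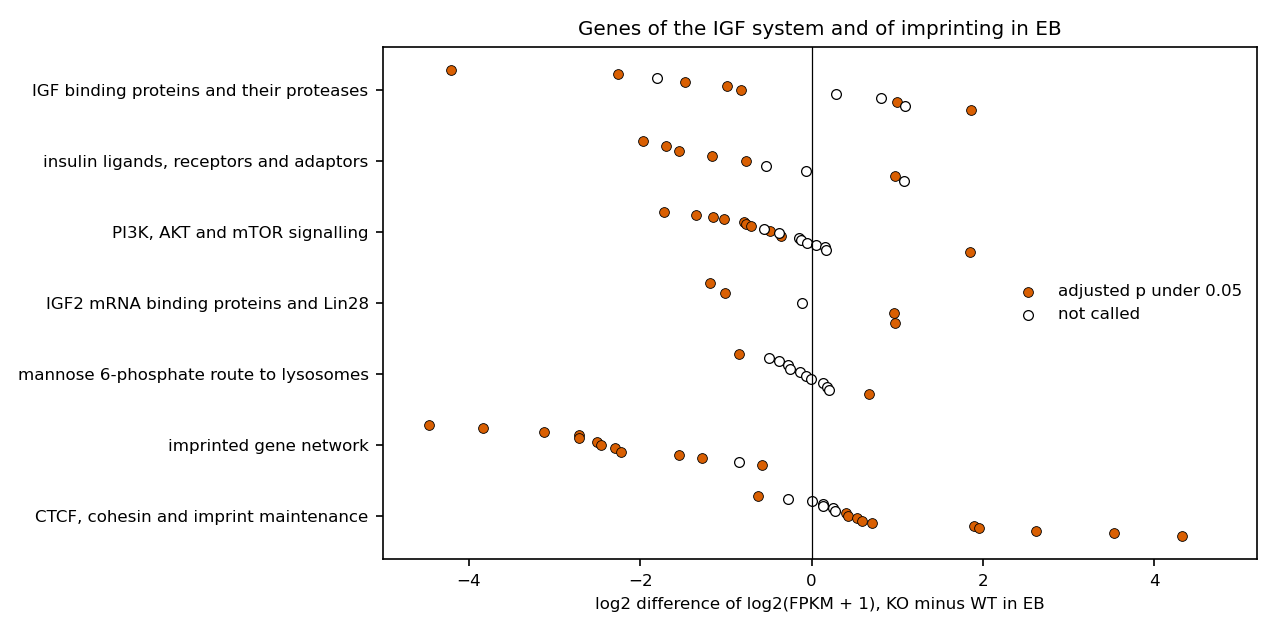
KO minus WT difference of log2(FPKM + 1) in EB for the genes of 7 lists, 1 point per gene that passed the filter. Filled points had an adjusted p under 0.05 and open points did not. The imprinted gene network lies left of 0 throughout, and the list of CTCF, cohesin and imprint maintenance lies mostly right of it.

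The IGF binding proteins, which hold IGFs outside the cell and set how much reaches the receptors, moved in both directions. Of 11 binding proteins and proteases tested in KO EB, 2 rose, 5 fell and 4 were not called. Of all genes, 20.0% rose and 25.9% fell. Igfbp5, the binding protein typical of mesenchyme and muscle, had 4.93 and 33.3 FPKM in KO EB, against 259 and 267 FPKM in WT EB. It fell by 4.21 (SE 0.69, adjusted p = 0.00320), and the size depended on the library, at -5.48 without KO EB replicate 2 and -2.94 without KO EB replicate 1.

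Igfbp4 had 26.5 and 60.9 FPKM in KO EB, against 192 and 203 FPKM in WT EB, and fell by 2.26 (SE 0.33, adjusted p = 0.00216). Igfbp3, the main carrier of IGFs in serum, fell by 1.48 (SE 0.17, adjusted p = 0.00111). Igfbp6, which prefers IGF2 over IGF1, rose by 1.86 ± 0.24 (adjusted p = 0.00137). It had 6.08 and 4.73 FPKM in KO EB, against 0.610 and 0.927 FPKM in WT EB. Igfbp2, the other member of the list that rose, did so by 1.00 ± 0.21 (adjusted p = 0.00789) and had 385 and 326 FPKM in KO EB, against 157 and 199 FPKM in WT EB. Igfbp2 and Igfbp6 thus moved opposite to Igfbp3, Igfbp4 and Igfbp5. In EB relative to ES cells, Igfbp3, Igfbp4 and Igfbp5 rose in both genotypes, by 1.60, 3.05 and 3.44 in KO and by 3.32, 6.07 and 7.71 in WT cells. The KO call of Igfbp5 (adjusted p = 0.0120) was lost without KO ES replicate 1 (0.0549).

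Among the insulin ligands, receptors and adaptors, 1 of 9 genes rose and 5 fell in KO EB, against 20.0% and 25.9% of all genes. Irs1, the docking protein phosphorylated by IGF1R, had 0.761 and 1.54 FPKM in KO EB, against 5.00 and 6.88 FPKM in WT EB, and fell by 1.70 (SE 0.23, adjusted p = 0.00177). The adaptors Grb10 and Grb14, which restrain insulin and IGF receptors, fell by 1.55 (SE 0.21, adjusted p = 0.00159) and 1.97 (SE 0.25, adjusted p = 0.00140). Grb10 is itself imprinted. Gab1, a docking protein of several receptor kinases, rose by 0.97 ± 0.10 (adjusted p = 7.85e-04). The rise of Gab1 was thus opposite in direction to the changes of Irs1, Grb10 and Grb14.

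Of 18 genes of PI3K, AKT and mTOR signalling, 1 rose and 9 fell in KO EB, against 20.0% and 25.9% of all genes. Pik3cb, the catalytic subunit p110 beta, rose by 1.85 ± 0.17 (adjusted p = 5.31e-04). It had 24.8 and 19.3 FPKM in KO EB, against 4.94 and 5.80 FPKM in WT EB. The regulatory subunit gene Pik3r3 fell by 1.72 (SE 0.28, adjusted p = 0.00318). The kinase gene Akt2 fell by 0.79 (SE 0.09, adjusted p = 0.00105).

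The proteins that bind Igf2 mRNA and their partner Lin28 changed in opposite directions within the list. Of 5 genes, 2 rose and 2 fell in KO EB. Igf2bp1 rose by 0.97 ± 0.11 (adjusted p = 9.47e-04) and had 91.9 and 95.3 FPKM in KO EB, against 43.9 and 50.9 FPKM in WT EB. Igf2bp3 fell by 1.18 (SE 0.22, adjusted p = 0.00474). Lin28a, a regulator of let-7 microRNAs that also binds Igf2 mRNA in muscle, rose by 0.96 ± 0.23 (adjusted p = 0.0131), and its paralog Lin28b fell by 1.01 (SE 0.19, adjusted p = 0.00566). The call of Lin28a was lost without KO EB replicate 1 (0.0538) or KO EB replicate 2 (0.0638).

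The mannose 6-phosphate route, by which IGF2R also delivers enzymes to lysosomes, showed few calls. Of 12 genes tested, 1 rose and 1 fell in KO EB, where 45.9% of all genes were called in either direction. Gnptab, which makes the mannose 6-phosphate tag, rose by 0.67 ± 0.15 (adjusted p = 0.0110), and Gaa, the lysosomal alpha-glucosidase, fell by 0.85 (SE 0.20, adjusted p = 0.0131). Both calls were lost without KO EB replicate 1 (0.0571 and 0.0812) and without WT EB replicate 2 (0.0669 and 0.0819). In EB relative to ES cells, Hexa and Ctsl, a lysosomal hexosaminidase subunit and cathepsin L, rose by 2.19 ± 0.18 and 2.05 ± 0.15 in KO and by 2.15 ± 0.18 and 2.57 ± 0.15 in WT cells, with adjusted p-values of 0.00100 and 7.23e-04 in KO and 8.95e-05 and 3.59e-05 in WT.

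Igf2, H19 and Igf2r belong to a set of imprinted growth genes known to be expressed together in embryonic tissues. The 14 other genes listed as this network included 13 that passed the filter, of which 12 fell in KO EB and 1 was not called. Their median log2 difference was -2.46, against -0.06 over all genes. In KO ES 0 of the 13 were called, against 0.499% of all genes. Plagl1, a zinc finger transcription factor that binds the Igf2 and H19 enhancers, fell by 3.83 (SE 0.41, adjusted p = 8.29e-04) and had 3.05 and 7.41 FPKM in KO EB, against 68.8 and 97.5 FPKM in WT EB. Cdkn1c, a cell cycle inhibitor encoded at the far end of the same chromosome 7 cluster, fell by 2.50 (SE 0.32, adjusted p = 0.00144). It had 107 and 98.0 FPKM in KO EB, against 587 and 581 FPKM in WT EB. Dcn, the matrix proteoglycan decorin, fell by 3.12 (SE 0.19, adjusted p = 2.30e-04), and Gnas, a G protein subunit, fell by 2.22 (SE 0.21, adjusted p = 5.38e-04). The exception was Meg3, at -0.85 ± 0.43 (adjusted p = 0.152).

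Of 17 genes tested that encode CTCF, cohesin or factors that write, maintain or erase imprints, 10 rose, 1 fell and 6 were not called in KO EB. In KO ES 0 of the 17 were called, against 0.499% of all genes. The gene that fell was Dnmt3a, a de novo DNA methyltransferase, by 0.63 (SE 0.17, adjusted p = 0.0231). In WT EB relative to WT ES, where 36.1% of all genes rose and 24.8% fell, 2 of the 17 rose and 11 fell. The falls went in the direction of the summed ES cell markers. The part of that shift in the KO EB values was not tested. Dnmt3l, the cofactor of de novo DNA methylation, had 276 and 187 FPKM in KO EB, against 7.34 and 14.8 FPKM in WT EB, and rose by 4.32 ± 0.33 (adjusted p = 3.36e-04). Its paralog Dnmt3b rose by 2.62 ± 0.18 (adjusted p = 2.68e-04). Zfp57, which binds methylated imprinting control regions, rose by 1.95 ± 0.15 (adjusted p = 3.23e-04), and the demethylating dioxygenase Tet1 rose by 1.90 ± 0.14 (adjusted p = 3.23e-04). Ctcf, the insulator factor, had 60.0 and 59.3 FPKM in KO EB, against 50.2 and 58.9 FPKM in WT EB (0.13 ± 0.16, adjusted p = 0.545).

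By the level in all 8 libraries, the genes most like each of the 5 were ranked by Pearson's r of log2(FPKM + 1) among 12020 genes, as a description. The libraries form 4 groups, so high values are common. For Igf2 these were Sdf2, Farp1, Zfp672 and Heca, with r from 0.9960 to 0.9977, and for H19 they were Csf1, Spg20, Sh3glb1 and Farp1, with r from 0.9940 to 0.9969. Farp1 stood in both lists and had 22.3 and 21.1 FPKM in KO EB, 54.3 and 48.2 in WT EB, 4.27 and 5.02 in KO ES, and 1.16 and 1.44 in WT ES. For Igf2r they were Mmp2, Arid2, Nucb1 and Sptbn1, with r from 0.9895 to 0.9944. Mmp2, a matrix metalloproteinase, had 8.72 and 23.3 FPKM in KO EB, against 40.9 and 49.8 in WT EB, and so repeated the gap between the KO EB libraries. For Igf1 they were Rnf13, Zfp862-ps, Mospd2 and Ndufa2, with r from 0.9865 to 0.9902, and for Igf1r they were Phlpp1, Nenf, Mlycd and Speg, with r from 0.9858 to 0.9940. Among the 5 genes themselves, r was highest for Igf2 and H19 at 0.99 and lowest at 0.85, for Igf2 with Igf1r and for Igf2r with Igf1.

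Markers of several cell types moved with the 5 genes between the EB groups. Over 8 mesoderm markers, summed FPKM ran from 40.6 to 79.9 in KO EB and from 281 to 323 in WT EB, and 7 of 7 tested fell. Over 8 fibroblast markers the sums ran from 39.0 to 70.7 in KO EB and from 693 to 893 in WT EB, and 6 of 7 tested fell, with Fap at 0 in both EB groups. The exception was Thy1, which rose by 3.04 ± 0.27 in KO EB (adjusted p = 4.75e-04) and had 21.3 and 19.4 FPKM in KO EB, against 1.10 and 2.20 FPKM in WT EB. Over 8 markers of blood and endothelium they ran from 49.0 to 74.4 in KO EB and from 520 to 1816 in WT EB, and 7 of 8 tested fell. Over 10 markers of visceral and yolk sac endoderm, another tissue rich in Igf2 and H19, they ran from 1316 to 1502 in KO EB and from 1132 to 1286 in WT EB, with 3 risen and 3 fallen of 9 tested. Most of these sums was Apoe, which is also expressed in the ES libraries, with 1260 and 1368 FPKM in KO EB, against 979 and 793 FPKM in WT EB. Without Apoe, a step chosen after seeing the data, the sums were lower in KO EB, at 55.5 to 134 in KO EB and 308 to 339 in WT EB. Rbp4, which encodes the plasma carrier of retinol, fell by 3.09 (SE 0.35, adjusted p = 9.84e-04), and Afp, alpha-fetoprotein, fell by 3.49 (SE 0.59, adjusted p = 0.00363). Ttr fell by 1.18 (SE 0.37, adjusted p = 0.0363). Besides Apoe, Hnf4a and Amn rose, by 0.63 ± 0.16 (adjusted p = 0.0166) and 0.57 ± 0.20 (adjusted p = 0.0498). The calls of Hnf4a and Apoe were lost with column totals set equal (0.0511 and 0.0905). That of Apoe was also lost with quantile scaling (0.0935) or with only the EB libraries in the fit (0.0612). Without WT EB replicate 2 the rise was 0.57 for Hnf4a and 0.42 for Apoe. The median log2 difference of the 9 tested was 0.57, against -0.06 over all genes. Over 8 trophoblast markers the sums ran from 536 to 695 in KO EB and from 676 to 775 in WT EB, with 2 risen and 3 fallen of 7 tested. The 5 ES cell markers all rose in KO EB.

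In ES cells, where Igf2 and H19 were higher in the KO, the fibroblast sums ran from 43.3 to 50.2 in KO ES and from 5.42 to 8.63 in WT ES. Nearly all of this was Thy1, with 47.7 and 41.3 FPKM in KO ES, against 4.40 and 7.39 FPKM in WT ES (2.75 ± 0.27, adjusted p = 0.0153), and the 6 other fibroblast markers tested were not called. The call of Thy1 was lost without any 1 of the 4 ES libraries (adjusted p = 0.0540 to 0.0845). The trophoblast sums ran from 96.8 to 96.9 in KO ES and from 42.0 to 45.1 in WT ES, with the keratin gene Krt18 the 1 marker called (2.28 ± 0.17, adjusted p = 0.00545, and 0.0565 without KO ES replicate 1 and 0.0534 without WT ES replicate 2). The mesoderm sums ran from 4.81 to 7.64 in KO ES and from 1.70 to 3.52 in WT ES, with 0 of 7 called by limma. Between KO ES and WT ES, 0.499% of all genes were called. The part of these cell types in the values of the 5 genes was not tested. In bulk RNA, fewer cells of a type and less RNA per cell cannot be told apart.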

How the data were processed

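RNA-seq (8 libraries) and H3K4me3 and H3K27me3 ChIP-seq (8 libraries) of TL1 cells were used, and 4 input libraries were not analysed here. The deposited RNA table holds FPKM per gene, computed by the authors. Named in the submitters' processing notes, without the step each served, are HTSeq, Bowtie2, Cufflinks 2.2.1, STAR 2.6.0a and DESeq2, and the build mm10. Strand and read depth are not given in the sources used here.

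The deposited ChIP tables give 1 signal value for each gene, called promoter RPKM in the authors' file names. Across genes the values increased with the length of the locus (Spearman's rho 0.43 to 0.69 over the 8 libraries), so they were not taken as promoter or per-length values, and the design's assumption of RPKM was dropped. They were whole multiples of 0.0267, or of 0.0400 in WT EB H3K27me3, within 0.02 of a step.

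Of 53560 RNA entries, 120 second entries of a symbol were left out. Genes reaching 1 FPKM in 2 or more libraries were fitted as log2(FPKM + 1) in limma 3.58.1 (R 4.3.3), with a mean for each group, eBayes with a trend, and Benjamini-Hochberg adjustment over 15428 genes per contrast. Residual degrees of freedom were 4, and 7.05 once moderated. The fit was tested on simulated data. A call is a two-sided adjusted p under 0.05. All adjusted p-values are limma's. Fold changes of low genes are understated on this scale. FPKM totals differ between libraries, so equal totals and quantile scaling were tried, besides other pseudocounts, filters and left-out libraries.

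The genes and lists were chosen with earlier results of these data known. Named are the 5 genes, Chaf1a, markers, up to 4 called genes of smallest adjusted p per list and contrast, filtered neighbours within 250 kb and the 4 most correlated genes. Meg3, Ctcf, Igfbp2 and Dnmt3a fall outside that rule and were named after their values were seen. Promoter sequences are RefSeq's, GRCm38.p6. The result of 1 named gene is not reported here.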

Additional observations from a re-analysis of the deposited data

Results flagged for a closer look

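The KO effect differed between EB and ES cells in several results, given as the KO minus WT log2 difference in EB less that in ES cells. For Igf2 it was -4.95, for H19 -3.60 and for Igf2r -1.66. In these 3 genes both KO libraries lay below WT in EB and above WT in ES cells, and the difference was not tested.

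Among the other genes of the IGF system the difference itself was tested, in limma with Benjamini-Hochberg adjustment over all genes. It was negative for the binding proteins Igfbp3 (-1.72, adjusted p = 0.00489), Igfbp4 (-3.01, adjusted p = 0.00572) and Igfbp5 (-4.26, adjusted p = 0.0180), and positive for Igfbp6 (1.36, adjusted p = 0.0224). Without 1 library the call of Igfbp5 was lost in 4 cases, without either WT ES or either WT EB library (0.0518 to 0.0620). That of Igfbp6 was lost without either WT ES library, KO EB replicate 1, KO ES replicate 2 or WT EB replicate 1 (0.0536 to 0.0690). It was negative for the docking proteins Irs1 (-1.74, adjusted p = 0.0102) and Irs2 (-1.09, adjusted p = 0.0225) and for Grb14 (-1.74, adjusted p = 0.0127), and positive for Gab1 (0.88, adjusted p = 0.00649). The call of Irs2 was lost without either WT ES library, KO ES replicate 1, WT EB replicate 2 or KO EB replicate 1 (0.0506 to 0.0806).

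In the PI3K and AKT list it was 1.50 for Pik3cb (adjusted p = 0.00637), -2.16 for Pik3r3 (adjusted p = 0.00919) and -0.63 for Akt2 (adjusted p = 0.0135). Igf2bp1 and Igf2bp3, both binders of Igf2 mRNA, differed in opposite directions, by 0.92 (adjusted p = 0.00706) and -1.46 (adjusted p = 0.0134). The call of Igf2bp3 was lost without KO EB replicate 1 (0.0514).

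Of the mannose 6-phosphate route, Gnptg (-1.04, adjusted p = 0.0249), Gaa (-1.27, adjusted p = 0.0174) and Gusb (-0.98, adjusted p = 0.0268) were called. Each of these calls was lost when 1 of several libraries was left out, 5 libraries for Gnptg (0.0651 to 0.0812), 3 for Gaa (0.0570 to 0.0645) and 6 for Gusb (0.0581 to 0.0874).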

How the results depend on the processing

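The labels number only the second library of each group. With the unnumbered library taken as 1, an addition made after seeing the data, the deviations of same-numbered libraries correlated at 0.07 to 0.31 across genes between groups. The value was 0.31, the highest, for WT ES with KO ES and 0.12 for KO EB with WT EB. The labels do not say that the number pairs libraries, so the main fit used no pairing. A fit with that replicate block called 33, 0, 41, 31 and 25 genes of the IGF lists in the order of contrasts below and left the differences of the 5 genes as they were. Within each number Igf1r was lower in KO ES, at 2.15 FPKM against 2.58 in WT ES and 3.93 against 5.34. Where a left-out library leaves 1 in its group, that library is assumed to vary like the other groups. Called genes of the IGF lists numbered 29 for KO minus WT in EB (21 to 31 without 1 library), 0 in ES cells (0 throughout), 41 for EB minus ES in WT (38 to 41), 30 in KO (18 to 28) and 25 for the difference of the KO effects (14 to 26). With no filter the count was 17 for EB minus ES in KO and 13 for the difference, where many more genes are tested, and with only the KO libraries fitted it was 16. Without 1 library, the KO minus WT difference of Igf2 ran from -2.82 to -2.17 in EB and from 2.20 to 2.72 in ES cells, and EB minus ES in WT from 9.36 to 9.84. With 0.1 added before the log the last was 10.00, and with RP23-209O22.2 added to Igf2, chosen after seeing the data, the ES difference was 2.89. Igf1r in ES cells (-0.27) ran from -0.69 without WT ES replicate 1 to 0.14 without WT ES replicate 2, and was 0.05 without KO ES replicate 1. The number of histone mark ratios past 2-fold was 4 under each alternative. Scaling moved the centre of all genes. For KO minus WT in EB the median was -0.06 and 43.6% of calls were higher, against 0.04 and 51.5% with quantile scaling and -0.24 and 30.2% with equal totals. For EB minus ES the share higher was 59.3%, 47.3% and 64.3% in WT and 58.8%, 51.3% and 47.7% in KO, in the same order. The 5 genes kept their direction in EB under both. Depth is unknown, and 2 libraries per group limit the precision.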
